A study of Mus musculus with 21 samples.

Results

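Synaptic adhesion genes encode the cell-surface proteins that hold the sending and receiving sides of a synapse together. The 41 genes described here were listed by name, as members of 13 families. They are 41 of the 21887 protein-coding genes on chromosomes 1 to 19, X and Y in the annotation used. The families are neurexins (Nrxn2, Nrxn3), neuroligins (Nlgn1, Nlgn2, Nlgn3), contactins (Cntn1, Cntn3, Cntn4, Cntn5, Cntn6) and contactin-associated proteins (Cntnap1, Cntnap2, Cntnap4, Cntnap5a, Cntnap5b). They further include LRRTM (Lrrtm1, Lrrtm3, Lrrtm4), SLITRK (Slitrk1, Slitrk3, Slitrk5), FLRT (Flrt2, Flrt3) and IL1RAPL proteins (Il1rapl1, Il1rapl2), latrophilins (Adgrl1, Adgrl2, Adgrl3), the BAI receptors (Adgrb1, Adgrb3), teneurins (Tenm1, Tenm2, Tenm3, Tenm4), LAR-type phosphatases (Ptprd, Ptprs, Ptprf) and IgLON proteins (Lsamp, Ntm, Negr1, Opcml).

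Open chromatin was measured by Omni-ATAC, in which a transposase cuts accessible DNA, in 21 mouse libraries that form 7 groups of 3. Primary cells came from cerebella of Atoh1-EGFP mice and were sorted for EGFP, a reporter for the granule lineage. They were granule neuron progenitors (GNP) at postnatal day 7, hyperplasia at postnatal day 28, and tumor cells, for which no age is given. Titles of the GNP libraries read Ptch1GNP and those of the hyperplasia libraries PNC; the genotypes are not given in the sources used here, and stage cannot be told apart from age. The remaining groups were VDR, named in the labels as a medulloblastoma cell line: untreated, or treated with siNC (control), siNfia (targeting Nfia) or siNfib (targeting Nfib). Labels speak of siRNA, but the lists carry names with the prefix sh, and which reagent was used is uncertain. VDR is 1 line, and nothing says that the 3 libraries per group had different animals or cultures as their source, so the p-values may measure technical spread.

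Neurexins and LAR-type phosphatases sit mainly on the presynaptic membrane and bind postsynaptic partners across the cleft. Neuroligins and LRRTM proteins are partners of neurexins, SLITRK proteins and IL1RAPL1 are partners of LAR-type phosphatases, and latrophilins bind teneurins and FLRT proteins. In the cerebellum, granule neurons arise from Atoh1-positive progenitors, migrate inward and form parallel fibre synapses on Purkinje cells, and sonic hedgehog medulloblastoma arises from those progenitors.

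Promoter sequence is shown for 5 members whose starts had different patterns of occupancy over the groups. Each stretch is the 250 bases before the annotated start on the gene's own strand (RefSeq, GRCm38.p6). The start of Cntn5 (chr9:10904776-10905025, minus strand) had a kept summit in the 3 GNP libraries and in no other; the stretch shown is that of 1 of its 2 listed starts. The starts of Lrrtm3 (chr10:64090256-64090505, minus strand) and Slitrk3 (chr3:73057067-73057316, minus strand) had a kept summit in each primary library and in no VDR library. That of Negr1 (chr3:156561544-156561793, plus strand) was occupied in all 21 libraries, and that of Cntn6 (chr6:104492794-104493043, plus strand) in 0 of 3 siNC and 3 of 3 siNfib libraries. Capitals mark matches to any of 5 motifs searched on both strands. They are the NFI half-site TTGGC, the E-box CAGCTG, the cyclic AMP element TGACGTCA, the AP-1 site TGAGTCA and the GLI site TGGGTGGTC.
Cntn5: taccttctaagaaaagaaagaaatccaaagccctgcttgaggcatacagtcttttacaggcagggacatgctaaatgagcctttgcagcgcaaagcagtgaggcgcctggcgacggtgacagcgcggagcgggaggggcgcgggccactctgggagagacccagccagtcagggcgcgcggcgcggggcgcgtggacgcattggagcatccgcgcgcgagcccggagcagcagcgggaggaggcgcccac
Lrrtm3: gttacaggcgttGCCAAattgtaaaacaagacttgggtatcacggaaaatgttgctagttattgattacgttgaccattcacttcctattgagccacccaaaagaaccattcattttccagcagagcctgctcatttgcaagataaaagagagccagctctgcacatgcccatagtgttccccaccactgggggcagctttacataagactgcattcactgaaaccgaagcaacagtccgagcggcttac
Slitrk3: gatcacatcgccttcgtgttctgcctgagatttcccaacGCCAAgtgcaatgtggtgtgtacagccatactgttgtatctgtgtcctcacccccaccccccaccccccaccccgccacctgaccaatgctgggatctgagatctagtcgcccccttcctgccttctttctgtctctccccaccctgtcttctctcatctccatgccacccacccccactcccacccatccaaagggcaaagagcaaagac
Negr1: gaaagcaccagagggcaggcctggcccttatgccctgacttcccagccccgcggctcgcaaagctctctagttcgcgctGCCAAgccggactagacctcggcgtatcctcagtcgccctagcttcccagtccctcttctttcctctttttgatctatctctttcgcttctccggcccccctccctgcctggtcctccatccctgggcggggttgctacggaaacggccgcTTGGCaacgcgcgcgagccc
Cntn6: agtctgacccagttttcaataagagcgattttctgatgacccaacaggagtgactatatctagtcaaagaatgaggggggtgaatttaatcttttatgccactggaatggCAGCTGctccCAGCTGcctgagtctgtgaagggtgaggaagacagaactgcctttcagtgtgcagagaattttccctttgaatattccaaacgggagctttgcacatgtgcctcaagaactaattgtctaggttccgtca

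The Cntn5 stretch held 24 CpG dinucleotides and that of Negr1 19, while those of Lrrtm3, Slitrk3 and Cntn6 held 6, 5 and 3. The median was 8 over the 49 listed starts of members and 10 over 21263 starts of all genes. TTGGC or its complement was in 30.6% of member starts and 43% of all, the E-box in 12.2% and 12.1%, the cyclic AMP element in 2.04% and 1.92%, the AP-1 site in 0% and 4.06%, and the GLI site in 0% and 0.16%. None of these 5 motifs overlapped another in the printed stretches. A match describes letters only and says nothing of binding. Starts were listed for 34 of the 41 members. Those of Nrxn2, Nlgn3, Cntnap1, Cntnap4, Cntnap5a, Adgrb1 and Ptprd were not analysed here.

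For each library a scored list of summits was deposited. To compare lists of different length, the 100000 highest-scoring summits of each were kept, and those in a gene body or within 20 kb of it were counted. A value is therefore the number of kept summits in a gene window, and since every list was limited to the same length it moves with what the rest of the list holds. Full lists held 159720 to 279584 summits, and read depth is unknown. The score of the last kept summit, taken here as a measure of signal strength, ranged from 15.3 to 28.9 for GNP, from 9.26 to 12.6 for hyperplasia and from 10 to 21.3 for tumor. In VDR it was 3.76 to 3.97 untreated, 4.95 to 9.61 with siNC, 5.03 to 7.23 with siNfia and 8.25 to 17.4 with siNfib. The untreated VDR libraries stood apart. Over the 500 bp regions in member windows, the mean share of occupied regions that a pair of libraries held in common (Jaccard index) was 0.179 among them, against 0.547 within siNC, 0.581 within siNfia, 0.7 within siNfib and 0.68 to 0.797 within the primary stages. Granule lineage genes (Atoh1, Zic1, Zic2, Barhl1, Pax6, Neurod1, Meis1) held 178 to 246 summits in sum in the primary and siNC libraries, 153 to 201 with siNfia and siNfib, and 53 to 88 in untreated VDR. Of the 5 microglial markers, Csf1r and Itgam averaged 1.67 summits each in untreated VDR and were at 0 in each library outside it. Cx3cr1 averaged 2 in untreated VDR and 2.33 in GNP, and Irf8 12 (SD 6.08) and 4.67. Aif1 averaged 15.3 (SD 9.07) in untreated VDR, 5.33 in GNP and 11.3 to 12.7 in the siRNA groups. Microglial markers summed to 8 to 14 summits in primary libraries, 12 to 20 in siRNA libraries and 28 to 37 in untreated VDR. The other fixed marker lists were at 36 to 56 for astrocytes, 30 to 52 for oligodendrocytes, 19 to 31 for endothelial and mural cells and 15 to 31 for Purkinje cells and interneurons, with Aqp4 at 0 in GNP and the VDR groups, Olig2 at 0 in the siRNA groups, Cldn5 at 0 in hyperplasia, siNC and siNfia, and Calb1 at 0 in the VDR groups. Their part in the results was not tested.

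Across the primary stages the member windows together held 725 to 751 kept summits per GNP library, 708 to 729 per hyperplasia library and 729 to 796 per tumor library. The siNC libraries held 528 to 557, the siNfia libraries 558 to 578 and the siNfib libraries 591 to 617. Every VDR siRNA library was below every primary library. Untreated VDR libraries held 532 to 603, of which Cntnap5a and Cntnap5b alone made up a large part. Without these 2 genes the mean was 434 ± 11.3 in untreated VDR against 756 ± 33.9 in tumor (SD, n = 3 here and below).

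**Figure D1:**
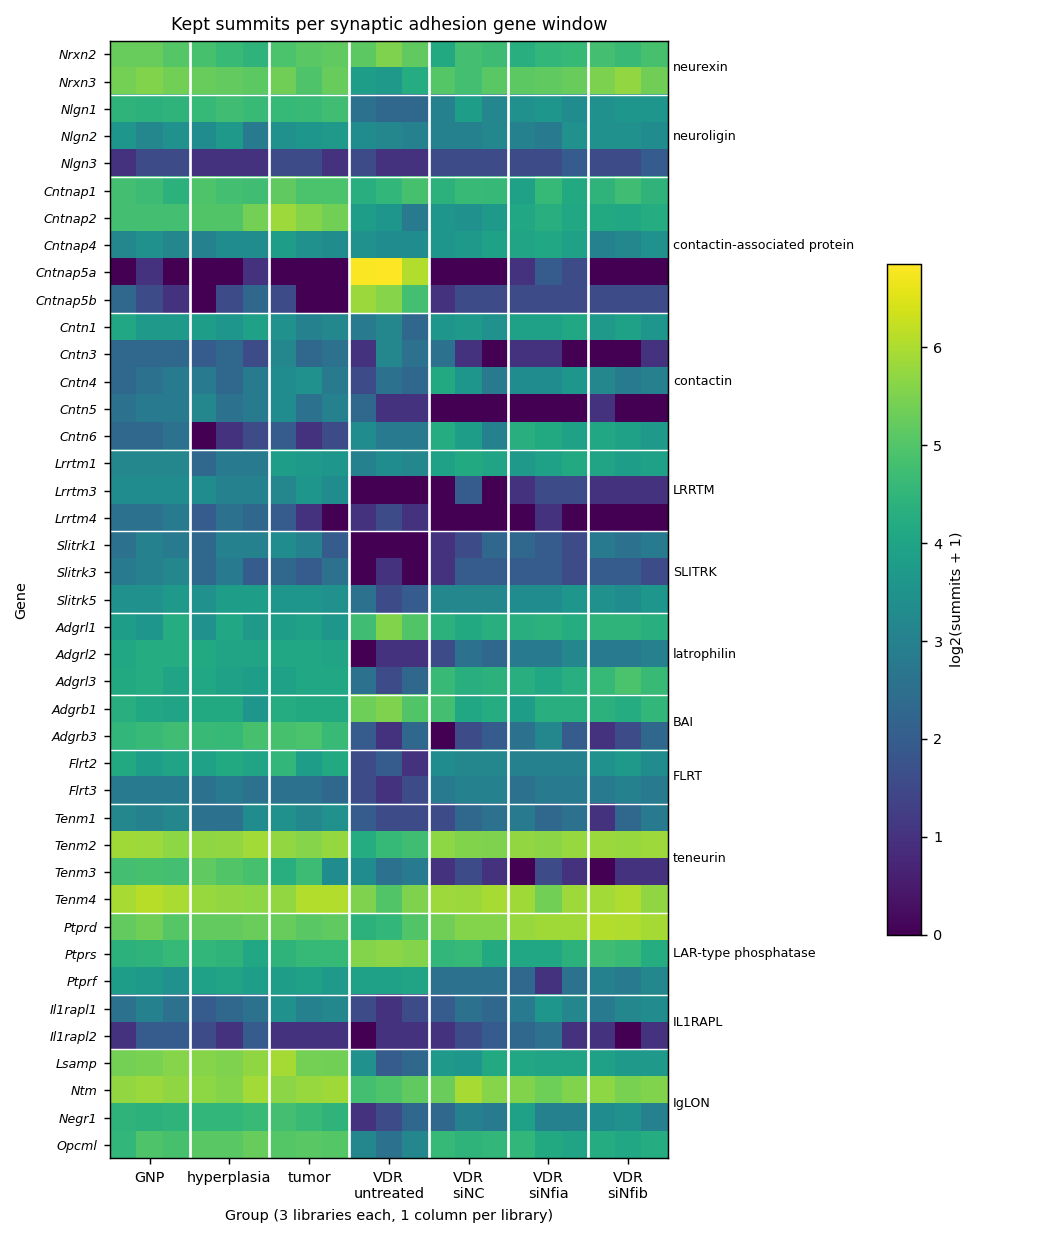
Each row is 1 of the 41 genes, grouped by family, and each column 1 of the 21 libraries; colour gives log2(kept summits + 1) in the gene window, from 0 (dark) upwards. Cntnap5a and Cntnap5b are bright in the 3 untreated VDR libraries alone, and Adgrb3, Lsamp and Negr1 are darker in the VDR libraries than in the primary ones.

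The mean number of kept summits per group follows for each member by family, in the order GNP, hyperplasia and tumor for the stages and untreated, siNC, siNfia and siNfib for VDR, with the largest SD of the 7 groups. Nrxn2 averaged 35.3, 24.3 and 32.3 in the stages and 38, 23, 21.3 and 26.3 in VDR, with an SD of at most 6.08. For Nrxn3 the means were 43, 35.7 and 35.7, then 14.3, 30.7, 35.3 and 45.3 in VDR (SD at most 6.11). Among the neurexins, Nrxn3 was lowest in untreated VDR and Nrxn2 was not. The window of Ptprd held 36, 36.7 and 35 in primary cells and 24.3, 44.7, 56 and 63 in the line (SD at most 5.86). Ptprs averaged 21.3, 19.7 and 22.3 in the stages and 47.7, 20.7, 17.3 and 22.7 in VDR, with an SD of at most 4.16. For Ptprf the means were 11.7, 14 and 13, then 14.3, 5, 3.33 and 7 in VDR (SD at most 2.08). Of the phosphatases, Ptprd was highest with siNfib, Ptprs in untreated VDR, and Ptprf was lower in the siRNA groups than elsewhere.

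On the postsynaptic side, the partners of neurexins differed in level and order. The window of Nlgn1 held 20.7, 24.3 and 24.3 in primary cells and 4.33, 9.33, 10 and 10.7 in the line (SD at most 3.21). Nlgn2 averaged 9.67, 9 and 11 in the stages and 8, 7.33, 7.67 and 9.67 in VDR, with an SD of at most 3. For Nlgn3 the means were 1.67, 1 and 1.67, then 1.33, 2, 2.33 and 2.33 in VDR (SD at most 0.577). Nlgn1 had its 4 lowest means in the VDR groups, while Nlgn3 was near the lower limit throughout. The window of Lrrtm1 held 8, 5.33 and 12 in primary cells and 8, 15.3, 14.3 and 14 in the line (SD at most 2.52). Lrrtm3 averaged 9, 7.67 and 9.33 in the stages and 0, 1, 1.67 and 1 in VDR, with an SD of at most 1.73. For Lrrtm4 the means were 5.33, 4 and 1.33, then 1.33, 0, 0.333 and 0 in VDR (SD at most 1.53). Lrrtm3 and Lrrtm4 were almost without kept summits in VDR and Lrrtm1 was not. The window of Slitrk1 held 6, 6 and 6.33 in primary cells and 0, 2.33, 3 and 5.67 in the line (SD at most 3.06). Slitrk3 averaged 7, 4.33 and 4 in the stages and 0.333, 2.33, 2.67 and 2.67 in VDR, with an SD of at most 1.53. For Slitrk5 the means were 10.7, 12 and 10.7, then 3.33, 8, 9.67 and 10 in VDR (SD at most 1.73). All 3 SLITRK genes had their lowest mean in untreated VDR. The window of Il1rapl1 held 5.67, 4 and 8.33 in primary cells and 1.67, 4, 8.33 and 7.67 in the line (SD at most 2.52). Il1rapl2 averaged 2.33, 2 and 1 in the stages and 0.667, 2, 3.33 and 0.667 in VDR, with an SD of at most 2.08. Il1rapl1 and Il1rapl2 were sparse for genes of their length.

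Latrophilins and their ligands, with the BAI receptors, included windows alike in all siRNA and primary groups and windows that differed widely. For Adgrl1 the means were 14, 12.7 and 12.7, then 34.3, 18.7, 19 and 20.3 in VDR (SD at most 10.4). The window of Adgrl2 held 17.3, 15.7 and 15.7 in primary cells and 0.667, 3.67, 6.67 and 6.33 in the line (SD at most 1.53). Adgrl3 averaged 16.7, 14.3 and 15.3 in the stages and 3.67, 21, 18 and 25.3 in VDR, with an SD of at most 3.21. Adgrl1 was highest and the other latrophilins lowest in untreated VDR. For Tenm1 the means were 7.67, 6.33 and 9.33, then 2.33, 3.67, 5 and 3.67 in VDR (SD at most 2.52). The window of Tenm2 held 54.7, 54 and 51 in primary cells and 22.3, 47, 51.7 and 55 in the line (SD at most 4.36). Tenm3 averaged 27.3, 31.3 and 17.7 in the stages and 6.67, 1.33, 1 and 0.667 in VDR, with an SD of at most 8.08. Tenm2 was lowest in untreated VDR, and Tenm3 was low in all VDR groups. For Tenm4 the means were 63.7, 52 and 61, then 40.3, 57.3, 51.3 and 58 in VDR (SD at most 8.96). The window of Flrt2 held 15, 15.3 and 17.3 in primary cells and 2, 8.33, 7 and 10.3 in the line (SD at most 4.51). Flrt3 averaged 6, 5.33 and 4.67 in the stages and 1.67, 6.67, 5.67 and 6.33 in VDR, with an SD of at most 0.577. Flrt2 was lower in each VDR group than in each stage. For Adgrb1 the means were 16.7, 15 and 17.3, then 38.3, 20.3, 17 and 20 in VDR (SD at most 7.02). The window of Adgrb3 held 24, 25 and 27 in primary cells and 2.67, 1.67, 5.33 and 2.33 in the line (SD at most 2.65). The BAI genes differed: Adgrb3 was low in all VDR groups and Adgrb1 high in the untreated one.

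Contactins, their associated proteins and IgLON proteins are anchored in or linked to the axonal membrane. Cntn1 averaged 13.3, 12.7 and 8.33 in the stages and 6, 11, 14.7 and 12.3 in VDR, with an SD of at most 2.31. For Cntn3 the means were 4, 3 and 5.67, then 4.67, 2, 0.667 and 0.333 in VDR (SD at most 3.51). The window of Cntn4 held 5, 5.33 and 8.33 in primary cells and 3.67, 11.3, 9.67 and 7 in the line (SD at most 5.51). Of these, Cntn3 was the sparsest in the siRNA groups. Cntn5 averaged 5.67, 6.33 and 7 in the stages and 2, 0, 0 and 0.333 in VDR, with an SD of at most 2. For Cntn6 the means were 4.33, 1 and 2, then 7, 12.7, 16.7 and 14 in VDR (SD at most 5.51). Cntn5 was lower and Cntn6 higher in each VDR group than in each stage. The window of Cntnap1 held 24, 27.7 and 31 in primary cells and 23, 22.3, 18 and 22.7 in the line (SD at most 4.58). Cntnap2 averaged 27, 34.7 and 48 in the stages and 10, 11, 17 and 17 in VDR, with an SD of at most 7.55. For Cntnap4 the means were 8.67, 8.33 and 10.7, then 9.33, 12.3, 15 and 8.33 in VDR (SD at most 2.08). Cntnap2 was highest in tumor and low in VDR. The window of Cntnap5a held 0.333, 0.333 and 0 in primary cells and 96.7, 0, 2 and 0 in the line (SD at most 27.5). Cntnap5b averaged 2.33, 2 and 0.667 in the stages and 43.3, 1.67, 2 and 2 in VDR, with an SD of at most 14.6. Cntnap5a and Cntnap5b were nearly empty outside untreated VDR. For Lsamp the means were 44.3, 48 and 47.7, then 5.67, 13.3, 15.3 and 12.7 in VDR (SD at most 10.7). The window of Ntm held 52.7, 52 and 53.7 in primary cells and 30.7, 49, 43.7 and 46.3 in the line (SD at most 11.5). Negr1 averaged 20.7, 22.7 and 24 in the stages and 2.33, 5.67, 9.33 and 8.67 in VDR, with an SD of at most 4.04. Lsamp and Negr1 were low in all VDR groups. For Opcml the means were 26.7, 34.3 and 32.3, then 7, 22, 18 and 17.3 in VDR (SD at most 4.16). Opcml was lowest in untreated VDR.

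Levels were also set side by side per length of the window, which takes in 20 kb on each side of the gene body. For short genes most of the window is flank: the body is 16.1 of 56.1 kb for Cntnap1 and 8.0 of 48.0 kb for Slitrk5. Summits near adjacent genes therefore count in such a density. In tumor, Cntnap1, which helps join axon and myelin beside the node of Ranvier, had the densest window at 55.3 ± 6.17 summits per 100 kb, followed by Slitrk5 at 22.2 ± 1.2, Ptprs at 21.4 ± 1.11 and Nrxn2 at 20.9 ± 1.98. The ranges of the last 3 lay within their spread of each other. The sparsest were Cntnap5a with 0, Il1rapl2 with 0.0759 ± 0 and Cntnap5b with 0.0879 ± 0.152. Cntnap1 was also first in GNP (42.8 ± 6.43), hyperplasia (49.3 ± 3.71), siNC (39.8 ± 3.71), siNfia (32.1 ± 8.17) and siNfib (40.4 ± 5.14). In untreated VDR, Ptprs led with 45.8 ± 1.11 per 100 kb. Long genes held many summits at low density, as with Cntnap2, whose window around a 2241.3 kb body held 2.1 summits per 100 kb in tumor.

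Hyperplasia was compared with GNP, and tumor with both, to ask how member windows differ along the course from progenitor to tumor. These comparisons share their groups, so each is given with its own values. Few members changed. Between hyperplasia and GNP, Nrxn2, a neurexin, fell from 37, 37 and 32 summits in GNP to 28, 24 and 21 in hyperplasia, and stood at 29, 33 and 35 in tumor. The GNP and hyperplasia values did not overlap, and the fall of 0.53 on the log2(summits + 1) scale (SE 0.115) gave an adjusted p = 0.0397 (limma, Benjamini-Hochberg over all genes tested). Of the 36 members with a mean of at least 3 summits it was the sole call, with 0 members higher, where 9 members had an unadjusted p below 0.05, as had 21% of all genes. Among all 14098 genes tested 1.83% were called higher and 2.17% lower, so the members' share was near the background. The median member change was -0.06 and that of all genes -0.02. Lrrtm1 (-0.52, adjusted p = 0.07, limma), Slitrk3 (-0.62, 0.154) and Il1rapl1 (-0.42, 0.249) did not pass.

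Lrrtm1, a postsynaptic partner of neurexins, held 8, 8 and 8 summits in GNP, 4, 6 and 6 in hyperplasia and 13, 12 and 11 in tumor. Tumor values lay above those of both other stages. It rose by 1.05 (SE 0.139) from hyperplasia to tumor, with an adjusted p = 0.0297 (limma), and was the 1 member called of 36, against 0.135% of all genes called higher and 0.0567% lower. No member was called lower. An unadjusted p below 0.05 was found for 11 members and for 16.7% of all genes. Lrrtm4 (-1.30, adjusted p = 0.169, limma), Il1rapl1 (0.91, 0.0752) and Tenm3 (-0.90, 0.171) did not pass.

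From GNP to tumor, 1 member rose and 2 fell, against 2.95% of all genes called higher and 3.29% lower. Cntnap2, which encodes CASPR2, a protein that clusters potassium channels along the axon, held 27 summits in each GNP library, 31, 31 and 42 in hyperplasia and 56, 47 and 41 in tumor. GNP lay below both later stages, while hyperplasia and tumor overlapped. The rise to tumor was 0.80 (SE 0.136; adjusted p = 0.0161, limma). Lrrtm4, also a neurexin partner, fell from 5, 5 and 6 summits to 3, 1 and 0, a change of -1.66 (SE 0.414; adjusted p = 0.0498, limma). Cntn1, a contactin of axons and of the paranodal junction, fell from 16, 12 and 12 to 10, 7 and 8, a change of -0.62 (SE 0.155; adjusted p = 0.0499, limma). For both genes tumor lay below GNP. Tenm3 (27, 28 and 27 in GNP; 35, 31 and 28 in hyperplasia; 19, 25 and 9 in tumor) had a change of -0.71 with an adjusted p = 0.177 (limma), and Slitrk3 one of -0.69 (0.103). None of the 5 stage calls held in every fit that left out 1 of the 9 libraries. The call of Cntnap2 held in 5 of those 9 fits, Nrxn2 in 2, Lrrtm1 and Lrrtm4 in 1 each and Cntn1 in 0.

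The 10 nearest non-member genes on each side gave a local baseline. Around Cntnap2, on chromosome 6, that baseline rose by 0.35 from GNP to tumor, and the rise of Cntnap2 over it was 0.45 (adjusted p = 0.0282, limma). The baseline of Lrrtm1, also on chromosome 6, rose by 0.27 from hyperplasia to tumor, and Lrrtm1 rose by 0.78 over it (adjusted p = 0.0164). The 5 stage calls passed against this baseline too. With it, 0 members were called higher and 3 lower from GNP to hyperplasia (all genes: 3.4% and 3.24%), 2 and 2 from hyperplasia to tumor (0.958% and 0.61%), and 2 and 4 from GNP to tumor (4.67% and 3.02%).

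Single sites differed between stages also within windows that passed no test. A 500 bp region was called gained when it was occupied in 3 of 3 libraries of the later group and 0 of 3 of the other, and lost in the reverse case. From GNP to hyperplasia, 51 of the 523 member regions that could be called were gained (9.75%) and 56 lost (10.7%), against 7.17% and 6.72% of all regions. From hyperplasia to tumor 17 of 483 were gained and 19 lost, against 2.94% and 3.28%. From GNP to tumor 43 of 525 were gained and 43 lost, against 6.87% and 6.36%. Occupancy depends on the rank limit: of the 56 regions lost from GNP to hyperplasia, 6 had no summit in any whole hyperplasia list.

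The strongest of the gained sites lay in Ntm, an IgLON gene, at chr9:29262814-29263313, in the gene body 149.6 kb from its nearest listed start. It was occupied in 0 of 3 GNP, 3 of 3 hyperplasia and 3 of 3 tumor libraries, at a mean rank of 7619 in hyperplasia, though each whole GNP list holds a weaker summit there. A site in Cntn5 at chr9:10269231-10269730, 635.2 kb from the start, had the same pattern, and there no whole GNP list holds a summit. Of the lost sites, the one in Tenm2, a teneurin, at chr11:36492256-36492755, 451.7 kb from its start, was strongest, with 3 of 3 GNP libraries and 0 of the others at this limit. A site in the body of Adgrb3 at chr1:25745519-25746018, 83.94 kb from its start, was kept in 3 of 3 GNP and 3 of 3 hyperplasia libraries and lies in no whole tumor list. Another in Lrrtm4 at chr6:80500186-80500685 was present in the 3 hyperplasia libraries and in no other whole list of the series.

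At gene starts, stage changes were limited to a few members. Of the 34 members with a listed start, 28.7 ± 0.577 had a kept summit within 1 kb of one in GNP, 25.7 ± 1.53 in hyperplasia and 24.7 ± 1.15 in tumor, while the share over all genes was 60.3%, 59% and 58%. Cntn5 went from 3 of 3 GNP libraries to 0 of 3 in hyperplasia and tumor, but each whole list of these stages still held a summit there. Flrt2 went from 3 of 3 to 1 of 3 in both, Lrrtm4 from 3 of 3 in GNP and hyperplasia to 1 of 3 in tumor, Cntnap5b from 3 of 3 through 2 of 3 to 0 of 3, and Il1rapl2 from 2 of 3 to 0 of 3 in both. Whole lists gave 29 members for GNP, 29 for hyperplasia and 26.7 for tumor.

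**Figure D2:**
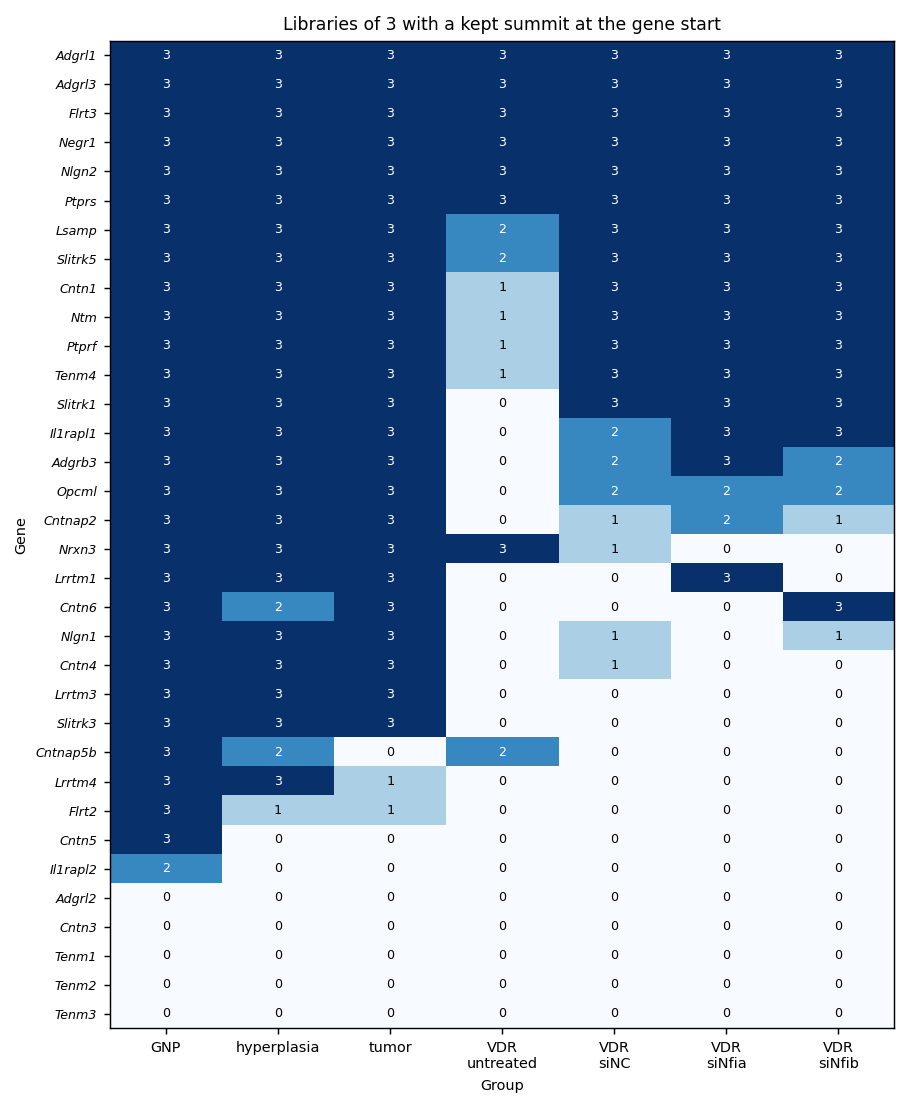
Rows are the 34 members with a listed start and columns the 7 groups; each cell gives how many of 3 libraries had a kept summit within 1 kb of a start. Adgrl1, Adgrl3, Flrt3, Negr1, Nlgn2 and Ptprs read 3 in each group, and Lrrtm3 and Slitrk3 read 3 in the primary stages and 0 in the 4 VDR groups.

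VDR cells with siNC were compared with tumor cells to ask how member windows differ between a cultured line and the tumors. Member windows held fewer kept summits in the line. Of 36 members tested, 17 fell and 2 rose, against 9.04% of all 13601 genes called lower and 16.8% called higher. The median member change was -0.41 on the log2(summits + 1) scale and that of all genes 0.12. Adgrb3, Tenm3, Cntnap2, Negr1 and Lsamp were among the members that fell most, and Cntn6 was the 1 that rose by more than 1. The filter on low values acts on the mean of the 9 libraries of the fit. Cntn5, Lrrtm3 and Adgrb3 averaged 3 summits or more in tumor alone and Cntnap5a and Cntnap5b in untreated VDR alone, so their presence among the tested members depends on the group where they are high. Of the other 31 members 14 fell and 2 rose, against 8.13% and 16.9% of the genes tested that reached this level in more than 1 group. Of the 19 calls, 10 held in each of the 9 fits without 1 library, and those of Cntn5 and Lrrtm3 in the 5 and 6 such fits in which these genes were tested. Without the untreated VDR libraries, which share the fit, 17 were lower and 5 higher. Source of cells, culture and signal strength differ together between these groups and cannot be told apart. In bulk material, fewer cells with an open site and less opening per cell cannot be told apart either.

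Presynaptic members were divided. Ptprf, which encodes LAR, fell from 13, 14 and 12 summits in tumor to 5, 5 and 5 with siNC, a change of -1.22 (SE 0.163; adjusted p = 0.000123, limma). The groups did not overlap. Ptprd had 37, 33 and 35 against 40, 47 and 47 (0.34, adjusted p = 0.123, limma), and Ptprs 22.3 ± 1.15 against 20.7 ± 3.21 (-0.12, 0.579). Of the neurexins, Nrxn2 fell from 29, 33 and 35 to 17, 27 and 25 (-0.50, SE 0.171; adjusted p = 0.045, limma), close to its neighbours, which fell by 0.49. Nrxn3 had 40, 30 and 37 against 32, 27 and 33 and did not pass (-0.21, adjusted p = 0.402, limma).

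Among the postsynaptic partners of neurexins, Nlgn1, a neuroligin of excitatory synapses, fell from 23, 24 and 26 to 7, 13 and 8 (-1.34, SE 0.21; adjusted p = 0.000375, limma). Nlgn2, the neuroligin of inhibitory synapses, fell from 10, 11 and 12 to 7, 7 and 8 (-0.53, SE 0.18; adjusted p = 0.0436, limma). In both the groups did not overlap. Nlgn3 held 1.67 ± 0.577 against 2 ± 0 and was too sparse to test. Lrrtm3 fell from 8, 11 and 9 to 0, 3 and 0 (-2.69, SE 0.474; adjusted p = 0.000853, limma), having passed the filter through tumor alone. Lrrtm4, at 3, 1 and 0 in tumor, was listed at 0 in the 3 siNC libraries and was not tested. Lrrtm1 did not follow them, with 13, 12 and 11 against 14, 17 and 15 (0.33, adjusted p = 0.172, limma).

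The partners of LAR-type phosphatases were less clear. Il1rapl1, linked to X-chromosomal intellectual disability in humans, fell from 10, 7 and 8 to 3, 5 and 4 (-0.91, SE 0.272; adjusted p = 0.0233, limma). Its call held in 5 of 9 fits without 1 library. Slitrk1 held 6.33 ± 3.06 in tumor against 2.33 ± 1.53, Slitrk3 4 ± 1 against 2.33 ± 1.15 and Il1rapl2 1 ± 0 against 2 ± 1, all under the minimum for testing. Slitrk5 had 10.7 ± 0.577 against 8 ± 0 and did not pass (adjusted p = 0.281, limma).

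Latrophilins and their ligands went different ways. Adgrl2 fell from 16, 16 and 15 summits to 2, 5 and 4 (-1.89, SE 0.325; adjusted p = 0.000709, limma). Its neighbours fell by 1.10 as well, and over them it was at -0.80 with an adjusted p = 0.122 (limma). Adgrl1 rose from 13, 14 and 11 to 20, 17 and 19 (0.53, SE 0.187; adjusted p = 0.0494, limma), less than its neighbours, which rose by 0.68. Adgrl3 held 15.3 ± 1.15 against 21 ± 2.65 and did not pass (adjusted p = 0.192, limma). Of the teneurins, Tenm3 fell from 19, 25 and 9 to 1, 2 and 1 (-2.92, SE 0.327; adjusted p = 3.21e-05, limma), and Tenm1 from 10, 8 and 10 to 2, 4 and 5 (-1.20, SE 0.281; 0.00595). Both ranges were separate from tumor. Tenm2, with 51 ± 2.65 against 47 ± 2.65, and Tenm4, with 61 ± 7.81 against 57.3 ± 3.21, did not pass (adjusted p = 0.584 and 0.736, limma). Flrt2, an FLRT ligand of latrophilins, fell from 22, 13 and 17 to 9, 8 and 8 (-0.95, SE 0.261; 0.0151), while Flrt3 held 4.67 ± 0.577 against 6.67 ± 0.577 and did not pass (0.234).

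Adgrb3, the BAI receptor that C1q-like proteins bind, had the largest fall among tested members that kept a summit in siNC. It went from 28, 29 and 24 summits in tumor to 0, 2 and 3 (-3.61, SE 0.431; adjusted p = 5.42e-05, limma), having passed the filter through tumor alone. GNP and hyperplasia held 22 to 28, so the primary libraries and the siNC libraries were far apart. Adgrb1 held 17.3 ± 0.577 in tumor against 20.3 ± 5.86 and did not pass (adjusted p = 0.507, limma).

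Contactins and their associated proteins held 3 falls and 1 rise. Cntnap2 fell from 56, 47 and 41 summits in tumor to 11, 10 and 12 (-2.02, SE 0.219; adjusted p = 2.58e-05, limma), below the 27 of each GNP library. Cntn5 had 9, 5 and 7 in tumor and was listed at 0 in each siNC library, with an adjusted p = 0.000123 (limma); it had passed the filter through tumor alone, at a mean of 3, and was tested in 5 of 9 fits without 1 library. Cntn6, a contactin of the early postnatal cerebellum, rose from 3, 1 and 2 to 18, 13 and 7 (2.16, SE 0.324; adjusted p = 0.000273, limma), with 4, 4 and 5 in GNP. Its values in siNC did not overlap with any primary stage. Cntnap1 fell from 35, 29 and 29 to 20, 24 and 23 (-0.45, SE 0.157; adjusted p = 0.0447, limma), a call held in 3 of 9 fits without 1 library. Cntn1 (8.33 ± 1.53 against 11 ± 1), Cntn3 (5.67 ± 2.08 against 2 ± 2.65), Cntn4 (8.33 ± 2.08 against 11.3 ± 5.51), Cntnap4 (10.7 ± 2.08 against 12.3 ± 1.53) and Cntnap5b (0.667 ± 1.15 against 1.67 ± 0.577) did not pass, and Cntnap5a was at 0 in both groups.

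IgLON genes, whose products are lipid-anchored and form dimers between neurons, fell in 3 of 4 cases. Negr1 fell from 27, 24 and 21 to 4, 7 and 6 (-1.93, SE 0.293; adjusted p = 0.000297, limma), although its start stayed occupied in all 21 libraries. Lsamp fell from 60, 42 and 41 to 12, 11 and 17 (-1.76, SE 0.297; adjusted p = 0.000622, limma). Opcml fell from 32, 33 and 32 to 23, 21 and 22 (-0.54, SE 0.168; adjusted p = 0.0293, limma). None of the 3 overlapped with tumor. Ntm held 53.7 ± 4.51 against 49 ± 11.5 and did not pass (adjusted p = 0.533, limma).

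**Figure D3:**
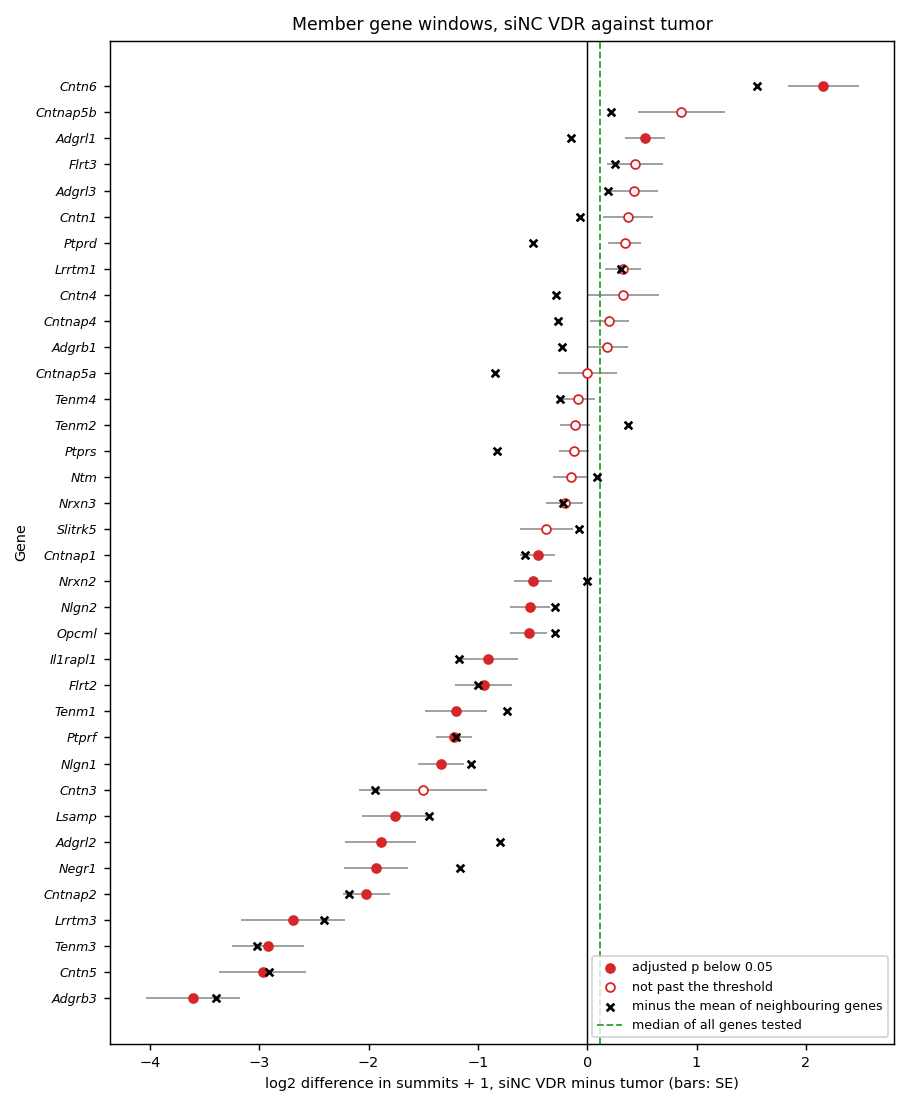
The 36 tested members are ordered by their log2 difference in summits + 1, siNC VDR minus tumor; bars are SE, filled circles passed an adjusted p of 0.05, crosses give the difference left after subtracting that of neighbouring genes, and the dashed line is the median of all genes, 0.12. Adgrb3, Cntn5 and Tenm3 lie farthest left for circles and crosses alike, and Cntn6 farthest right. For Cntn5, listed at 0 in siNC, the position depends on the pseudocount.

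Against neighbouring genes 15 members were called lower and 1 higher, where 7.57% of all genes were lower and 8.68% higher. Cntnap5a, at 0 in both groups, is left out of this count, since its value there is its neighbours' alone. Of the 17 members that fell, 12 also fell against their neighbours, as Adgrb3 (-3.40, adjusted p = 3.6e-05, limma), Tenm3 (-3.02, 1.34e-05), Cntnap2 (-2.18, 3.9e-05) and Ptprf (-1.20, 0.000235) did. The other 5 were Nrxn2, Nlgn2, Adgrl2, Tenm1 and Opcml. Among the 12, Adgrb3, Cntn5 and Lrrtm3 had passed the filter through tumor alone. Cntn6 rose by 1.55 against its neighbours (adjusted p = 0.00273, limma). Ptprs, level by itself, was at -0.83 against its neighbours, which rose by 0.71 (adjusted p = 0.000592, limma). With the tumor and siNC libraries alone this baseline gave 17 lower and 2 higher.

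Many members are long genes. Among 834 tested non-member genes of 200 kb or more, 25.4% fell and 15.7% rose between tumor and siNC VDR, with a median of -0.15. Of members that long, 10 of 23 fell and 1 rose (median -0.21), and of shorter members 7 of 13 fell and 1 rose (median -0.45). The shorter members that fell were Nrxn2, Nlgn2, Cntnap1, Lrrtm3, Adgrl2, Flrt2 and Ptprf.

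**Figure D4:**
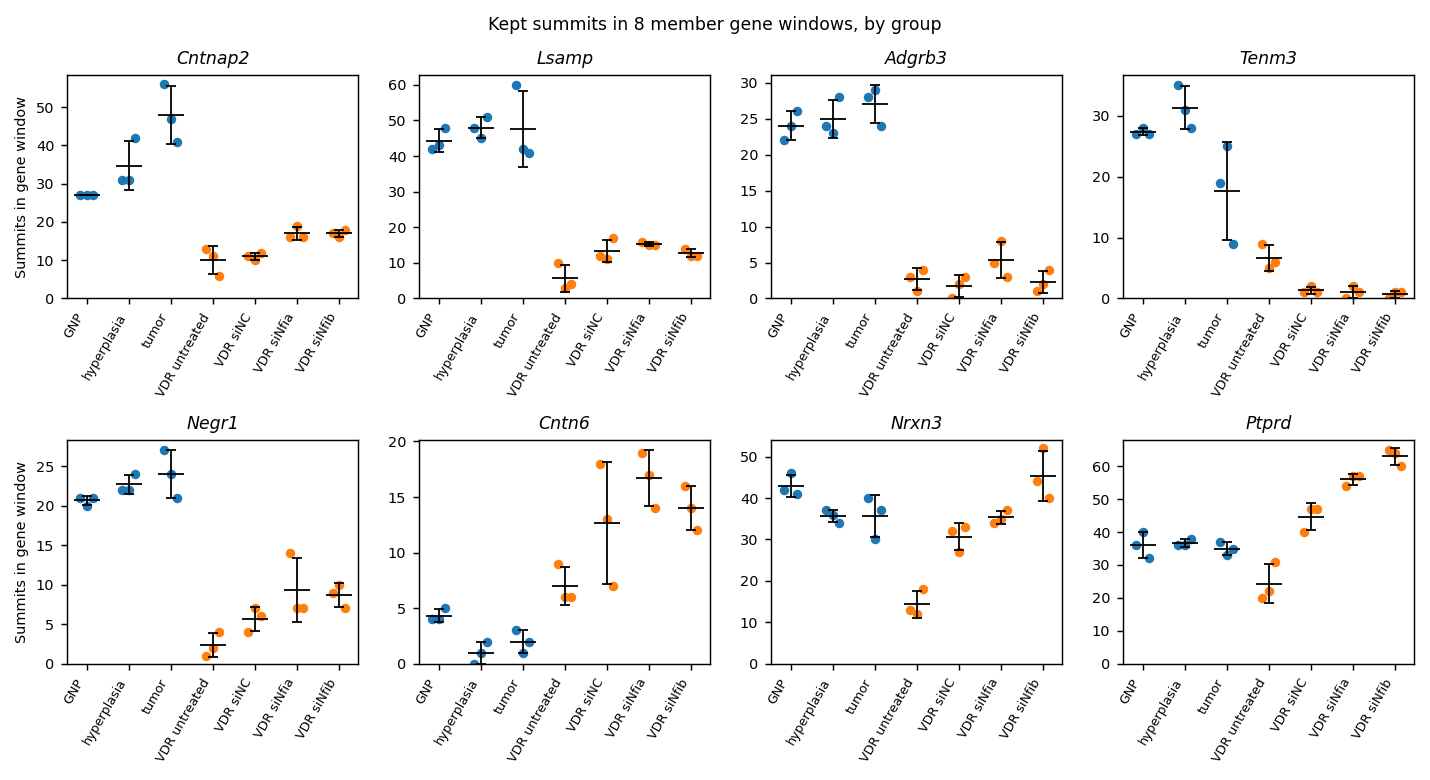
Kept summits (vertical axis, from 0) in 8 member windows for the 7 groups; points are libraries, blue for primary cells and orange for VDR, with mean and SD in black. Cntnap2, Lsamp, Adgrb3, Tenm3 and Negr1 lie lower in siNC than in tumor, Cntn6 lies higher, and Nrxn3 and Ptprd are highest among VDR groups with siNfib.

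Single sites were lost more often than gained. Of the 461 member regions that could be called, 139 were lost from tumor to siNC (30.2%), where 18.7% of all regions were, and 28 were gained, where 8.08% of all were. The lost sites fell in 30 genes, with 21 in Cntnap2, 19 in Lsamp, 11 in Adgrb3, 7 each in Negr1 and Nrxn3 and 6 each in Nlgn1 and Tenm2. Of these 139, 122 lay in a gene body and 11 within 1 kb of a listed start, and 87 had no summit in any whole siNC list. The 3 strongest were all in Cntnap2. They lay 321.3 kb inside the gene at chr6:45381133-45381632 (mean rank 3419 in tumor), at the start itself at chr6:45059800-45060299 (4608) and 271.5 kb from the nearest listed start at chr6:46972616-46973115 (6665). Each was occupied in 3 of 3 libraries of GNP, hyperplasia and tumor, and in 0 of 3 with siNC.

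**Figure D5:**
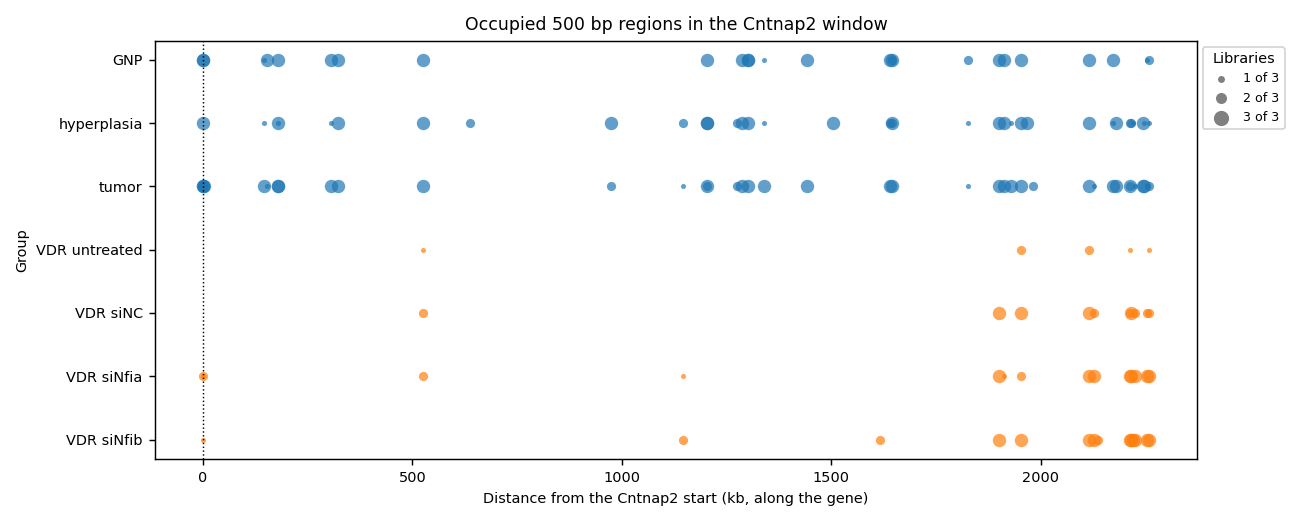
Occupied 500 bp regions in the Cntnap2 window by distance from its annotated start (kb, horizontal axis), for the regions found in at least 2 libraries of some group; each row is a group and the dot size gives 1, 2 or 3 of 3 libraries. The primary stages show dots at the start, within the first 525 kb and along the gene, and the siNC row shows dots at 525 kb and beyond 1901 kb alone.

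The strongest gained site lay in Cntn6 at chr6:104688528-104689027, in the gene body 195.7 kb from its start. Its mean rank in siNC was 812 of 100000. It was occupied in 3 of 3 libraries of GNP and of each VDR group and in none of hyperplasia and tumor, whose whole lists held a weaker summit there in 2 of 3 and 3 of 3 libraries. Further gained sites were in Ptprd at chr4:77519146-77519645 and in Tenm2 at chr11:36115047-36115546, occupied in 3 of 3 libraries of each siRNA group and in 0 of 3 tumor libraries. Of the 270 member regions occupied in each primary library, 47 were in no siRNA library (17.4%), compared with 10.8% of the 40246 such regions of the whole genome. Of the same 270, 63 were occupied in all 21 libraries (23.3%), compared with 36.6% of the same 40246 regions. The strongest of the 63 lay in the window of Adgrl1 at chr8:83955288-83955787.

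Fewer starts were occupied as well. Kept summits at a start were found for 24.7 ± 1.15 of the 34 members in tumor and 16.3 ± 1.53 with siNC, while the share over all genes was 58% and 53.5%. Cntn6 gained summits in its window in siNC while its start went from 3 of 3 tumor libraries to 0 of 3. Lrrtm1 had the same change at its start, although the whole siNC lists held a summit there in 3 of 3. Nrxn3, Nlgn1, Cntn4 and Cntnap2 went from 3 of 3 to 1 of 3. Cntn3, Adgrl2, Tenm1, Tenm2 and Tenm3 had no summit at their 1 listed start in any whole list; other starts of these genes were not analysed here. Over whole lists the count was 19.7 with siNC.

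Other synaptic genes, from lists named by function, were set beside the members. Between tumor and siNC, 9.04% of all genes tested were called lower and 16.8% higher. Of 28 tested genes for other synaptic organizers 12 fell and 1 rose (median -0.57). Clstn2, a calsyntenin, fell from 28.3 ± 0.577 to 3.67 ± 2.52 (-2.83, adjusted p = 0.000304, limma), Dscam from 26 ± 0 to 7.33 ± 0.577 (-1.70, 9.19e-05) and C1ql1, the climbing fibre ligand of Adgrb3, from 14.7 ± 3.21 to 5 ± 2 (-1.42, 0.000885). Lrfn2 rose from 8.33 ± 1.53 to 23.3 ± 3.51 (1.39, 5.42e-05). Of 20 presynaptic active zone and vesicle genes 5 fell and 4 rose (median -0.06). Rims1, an active zone scaffold, fell from 10 ± 0 to 0.333 ± 0.577, Rimbp2 fell from 22.3 ± 2.52 to 7.33 ± 1.15 and Erc1 rose from 14.7 ± 2.08 to 50 ± 14.1. Unc13c, a vesicle priming factor of granule cells, held 9 ± 1 in tumor and was listed at 0 with siNC. Of 24 postsynaptic scaffold and receptor genes 6 fell and 2 rose (median -0.15), with falls for Shank2, a postsynaptic scaffold, from 34.3 ± 4.04 to 11.7 ± 1.53 and for the NMDA receptor gene Grin2b from 15 ± 1 to 2 ± 2.65. The AMPA receptor gene Gria1 held 8 ± 1 and was listed at 0 with siNC. Of the genes counted as falls in these lists, Rims1, Unc13c, Snap25 and Gria4 averaged 3 summits or more in tumor alone. Their presence among the tested genes depends on that group. Of 7 granule lineage genes 3 fell and 2 rose.

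Untreated VDR cells were compared with the same tumor libraries, so this comparison shares its controls with the one above. Of 36 members 24 fell and 6 rose, against 30.2% and 20.7% of all genes, with medians of -1.07 for members and -0.23 for all genes. Cntnap5a and Cntnap5b had passed the filter through untreated VDR alone and Cntn5, Lrrtm3 and Adgrb3 through tumor alone; of the other 31 members 21 fell and 4 rose, against 29.8% and 20.3% of such genes. Of the 30 calls, 24 held in each of the 9 fits without 1 library, and those of Cntn5 and Lrrtm3 in the 5 and 6 in which they were tested. The fall was broad: among 834 tested non-member genes of 200 kb or more, 61.2% fell and 12.1% rose (median -0.79). Of members that long, 17 of 23 fell and 3 rose, and of shorter members 7 of 13 fell and 3 rose. Of the other synaptic organizers 46.4% fell and 14.3% rose. Of the presynaptic genes 55% fell and 15% rose, and of the postsynaptic genes 54.2% and 20.8%. Granule lineage genes fell in 6 of 7 cases (median -2.12), microglial marker sums were at their highest, and the libraries had the lowest scores. In the other marker lists, Aldh1l1, Sox10, Cdh5 and Pvalb were called higher and Gfap, Olig1, Olig2 and Mbp lower. The part of these in the member values was not tested.

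Cntnap5a held 111, 114 and 65 summits in untreated VDR, 0 in each tumor library and 0 to 3 elsewhere. Cntnap5b held 55, 48 and 27, with 0 to 4 elsewhere. Both genes lie at the ends of a stretch of chromosome 1 of 16.8 Mb (chr1:99772246-116587323) in which untreated VDR libraries had 99.8 to 143 summits per Mb, against 75.2 to 82 on the rest of the chromosome. In the other libraries the stretch was sparse, at 7.26 to 22.7 per Mb, against 34.3 to 51.9 on the rest of the chromosome. The rest of the chromosome was thus also denser in untreated VDR than in any other library. The neighbours of Cntnap5a rose by 3.14 and those of Cntnap5b by 1.74.

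The other members called higher were Cntn6, with 9, 6 and 6 summits against 3, 1 and 2 in tumor (1.45, SE 0.324; adjusted p = 0.00188, limma), and Adgrl1, Adgrb1 and Ptprs. Ptprs held 47, 49 and 47 against 21, 23 and 23, Adgrb1 39, 45 and 31 against 18, 17 and 17, and Adgrl1 26, 46 and 31 against 13, 14 and 11. Each was above tumor without overlap. These 3 did not pass against their neighbours, which rose by 1.33, 1.20 and 0.93. The members called lower included Adgrl2 with 0, 1 and 1 (-3.39), Adgrb3 with 3, 1 and 4 (-3.03), Negr1 with 1, 2 and 4 (-3.00) and Lsamp with 10, 3 and 4 (-2.99). Lrrtm3 was listed at 0 in each library. Further falls were found for Flrt2 with 2, 3 and 1 (-2.64), Nlgn1 with 5, 4 and 4 (-2.25), Cntnap2 with 13, 11 and 6 (-2.20), Opcml with 8, 5 and 8 (-2.08) and Adgrl3 with 5, 2 and 4 (-1.86). Their adjusted p ranged from 4.09e-07 for Opcml to 5.07e-05 for Adgrb3 (limma). Against neighbours 19 members were lower and 3 higher, with 14.8% and 9.09% of all genes. Among the higher were Cntnap5a and Cntnap5b, which had passed the filter through untreated VDR alone. Among the lower were Adgrb3 and Lrrtm3, which had passed it through tumor alone. A start was occupied for 10.3 ± 0.577 of 34 members (13.3 over whole lists), and for 49.4% of all genes.

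The siNfia and siNfib groups were compared with siNC to ask how member windows differ after each treatment. Both comparisons share the siNC libraries. How far Nfia or Nfib was reduced is not shown by the summit lists. With siNfia no member passed among 31 tested, and no gene passed among 13551 (0% higher and 0% lower, limma). At an unadjusted p below 0.05 there were 1566 genes and 8 members. Against neighbouring genes 0 members were called, with 0.0148% of all genes higher and 0.00738% lower. The members of largest change were Adgrb3, with 5, 8 and 3 against 0, 2 and 3 in siNC (1.39, adjusted p = 0.3, limma), Il1rapl1, with 6, 11 and 8 against 3, 5 and 4 (0.89, 0.204), Adgrl2, with 6, 6 and 8 against 2, 5 and 4 (0.76, 0.27), and Ptprf, with 4, 1 and 5 against 5, 5 and 5 (-0.62, 0.479). Il1rapl1 and Adgrl2 values did not overlap with siNC. Adgrb3 had passed the filter through siNfia alone.

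With siNfib 3 long members rose and 0 fell, against 0.273% of all genes called higher and 0.553% lower. Ptprd, a LAR-type phosphatase, held 40, 47 and 47 summits with siNC, 54, 57 and 57 with siNfia and 65, 64 and 60 with siNfib (0.49 for siNfib, SE 0.0904; adjusted p = 0.0276, limma). Nrxn3 held 32, 27 and 33, then 34, 35 and 37, then 44, 52 and 40 (0.55, SE 0.115; adjusted p = 0.0473, limma). Cntnap2 held 11, 10 and 12, then 16, 19 and 16, then 17, 16 and 18 (0.59, SE 0.125; adjusted p = 0.0484, limma). For each of these genes the siNfib values lay above siNC without overlap, and so did the siNfia values, where the adjusted p was 0.233, 0.53 and 0.17 (limma). Whether siNfia and siNfib differ from each other was not tested.

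These 3 calls rest on all libraries. Ptprd kept its call in 1 of 9 fits without 1 library and the others in 0. The siNfib lists also differed in the score at rank 100000, 8.25 to 17.4 against 4.95 to 9.61 with siNC, with ranges that overlap. The part of signal strength was not tested. Against neighbours the same count, 3 higher and 0 lower, was called, with 0.708% and 0.804% of all genes. Slitrk1 (1.10, adjusted p = 0.112, limma), Il1rapl1 (0.80, 0.127) and Adgrl2 (0.71, 0.192) did not pass. Among the 10 members too sparse to test in these groups were Tenm3 (1.33 ± 0.577 with siNC, 1 ± 1 with siNfia and 0.667 ± 0.577 with siNfib), Cntn3 (2 ± 2.65, 0.667 ± 0.577 and 0.333 ± 0.577) and Lrrtm3 (1 ± 1.73, 1.67 ± 0.577 and 1 ± 0).

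Among sites, siNfib gained 46 of 345 member regions (13.3%) and lost 16 (4.64%), against 6.19% and 4.02% of all regions. Of the gained sites 10 were in Nrxn3, 8 in Ptprd and 5 in Adgrl3, and 19 of the 46 had no summit in any whole siNC list. siNfia gained 12 of 301 and lost 12, against 2.11% and 1.79%. In Nrxn3 a site at chr12:90132395-90132894, 320.2 kb from the nearest listed start, was occupied in 0 of 3 siNC, 3 of 3 siNfia and 3 of 3 siNfib libraries, and no whole siNC list held it. Its mean rank was 8292 with siNfib and 47910 with siNfia. A second Nrxn3 site at chr12:89983248-89983747 (mean rank 9531) and a Cntn1 site at chr15:92087597-92088096 (14850) were also gained with siNfib. In Ntm the site at chr9:29772932-29773431 was occupied in each library of the primary, untreated and siNC groups and in no kept list of siNfia or siNfib, although 2 of 3 whole lists of each held a weaker summit. Sites lost with siNfib included one in Cntnap4 at chr8:112681697-112682196 and one in Opcml at chr9:28101900-28102399.

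At starts the siRNA groups were alike in number, with 16.3 ± 1.53 of 34 members for siNC, 17.3 ± 0.577 for siNfia and 17 ± 0 for siNfib, and 53.5%, 53.4% and 53.8% of all genes. The members differed. Cntn6, whose promoter holds a pair of E-box matches, was occupied in 0 of 3 siNC, 0 of 3 siNfia and 3 of 3 siNfib libraries, and in 1, 2 and 3 of the whole lists. Lrrtm1 was occupied in 0 of 3, 3 of 3 and 0 of 3, and in 3, 3 and 1 of the whole lists. Its window total was close to level, at 15.3 ± 1.53, 14.3 ± 2.52 and 14 ± 1 summits. Lrrtm3 and Slitrk3, whose promoters each hold 1 NFI half-site match, were at 0 of 3 in the 3 siRNA groups. Whole lists held a summit in 1, 0 and 2 libraries for Lrrtm3 and in 0, 2 and 1 for Slitrk3. The promoters of Negr1 and Flrt3 hold 2 NFI half-site matches each, and their starts were at 3 of 3 in the 3 siRNA groups. Whether motif matches go with the occupancy of starts was not tested.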

How the data were processed

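Open chromatin was measured in 21 libraries, in 7 groups of 3 taken from the sample labels. The authors deposited 1 list of peak summits per library with a score, read here as the -log10 of the peak caller's p or q value; the sources used here do not give which. Bowtie2, Picard and MACS2 with mm10 are named, per the submitters' processing notes, without versions; read shifting, filtering and pooling are not given there. Scores ranked summits within a list and were not compared between libraries as accessibility. The score of the last kept summit alone was set side by side between groups, as a measure of signal strength. Every deposited list was used, and read depth is unknown, so no counting interval was given.

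The 100000 highest-scoring summits per list were assigned to gene windows (RefSeq GRCm38.p6, which is mm10, gene body and 20 kb on each side). A summit in overlapping windows counted for each. Counts were analysed as log2(summits + 1) with limma 3.58.1 (R 4.3.3, trended empirical Bayes) for genes with a mean of at least 3, in 3 fits of 9 libraries: the primary stages; tumor, untreated and siNC VDR; and the siRNA groups. p-values were adjusted over all genes tested, with a threshold of 0.05. The fit was also run on simulated counts, drawn independently with the same spread setting for all genes and groups. That setting need not match these libraries, and no result given here rests on the simulation. Neighbouring baselines took 10 non-member genes on each side. Kept summits were also merged into 500 bp regions.

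The members, gene lists and tests were chosen with earlier results of these data known. Named genes were those past the threshold, up to 10 in each direction by size where more than 20 passed, or the 4 of largest change where fewer than 4 did. Named regions were up to 3 gained and 3 lost per comparison by mean rank; the few sites and starts named beyond these were chosen after their values were seen. Alternatives covered list length, window, regions, pseudocount, filter, baselines, fit, replicate block and left-out libraries.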

Additional observations from a re-analysis of the deposited data

How the results depend on the processing

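Over stages the member calls were unstable. From GNP to hyperplasia the 1 call became 3 at 50000 summits per list, 3 with the neighbouring-gene baseline and 6 with a baseline of 1 Mb on each side, and 0 with no filter, whole lists or the replicate block. From hyperplasia to tumor it became 4 and 5 with those baselines and 0 with whole lists or the block. From GNP to tumor the 3 calls became 6 and 7 with the baselines and 1 with no filter, a pseudocount of 0.5 or a wider fit. The 30 calls for untreated VDR against tumor became 19 at 50000 summits and 19 with the 1 Mb baseline, and the 19 for siNC against tumor 10 at 50000 summits, where 26 members were tested. The 3 siNfib calls became 0 at 50000 summits, with occupied regions, whole lists or the wider fit, and 1 with the gene body alone, no filter or the block. Of all genes, the calls for siNfib against siNC went from 112 to 4 with occupied regions. Leaving out 1 library gave 0 to 2 calls from GNP to hyperplasia, 0 to 1 from hyperplasia to tumor, 0 to 2 from GNP to tumor, 25 to 31 for untreated VDR, 10 to 20 for siNC, 0 to 0 for siNfia and 0 to 2 for siNfib.

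Signs turned with a local baseline for Adgrb1 in untreated VDR against tumor (-0.115 neighbouring genes, -0.0928 with 1 Mb), Ptprs (-0.273 and -0.0454) and Adgrl2 (0.555 with 1 Mb). Against tumor, siNC changed sign for Adgrl2 (0.537), Nlgn1 (0.278) and Tenm1 (0.0812) with 1 Mb, and for Adgrl1 with neighbouring genes (-0.152). It was -0.152 again without untreated VDR, an alternative chosen after seeing the data, as were whole lists for starts. The cause was not tested. Member regions gained or lost were 64 instead of 107 from GNP to hyperplasia at 50000 summits, 23 instead of 36 (56 with whole lists) to tumor, 55 instead of 86 from GNP to tumor, 101 instead of 167 (333 with whole lists) for siNC against tumor, 12 instead of 24 for siNfia and 37 instead of 62 for siNfib. Leaving out 1 library gave 113 to 142, 49 to 68, 97 to 116, 184 to 203, 33 to 43 and 73 to 84. With 1 library fewer the rule for a region is looser, so these counts could only stay or rise and say nothing of stability.

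The labels do not say that replicate numbers mark pairs, and the deviations of same-numbered libraries correlated weakly, at -0.0465 to 0.0766. A library correlated best with its own number in 6 of 18 cases in the primary fit, 6 of 18 in the fit of the line with tumor and 14 of 18 in the siRNA fit, the last a hint of pairing from the data and not from the design.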
